A study of Mus musculus with 14 samples.

Results

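The genes described here encode the proteins of the cytosolic ribosome. They were taken by name: a gene entered if its symbol in the array platform's annotation was Rpl or Rps followed by a digit, or was Rplp0, Rplp1, Rplp2 or Rpsa, with Rps6k kinases and pseudogene symbols left out. This gave 50 of the 18193 genes that had a probe set naming 1 gene, and each gene was followed through its brightest probe set. Of these 50 genes, 47 passed the filter on low signal and were among the 12085 genes tested. The brightest probe sets of Rpl39l, Rpl3l and Rps16 did not pass. Not all symbols of this form stand for subunits: Rps19bp1 is a protein that binds a subunit, Rpl7l1 is a nucleolar relative of Rpl7, and Rpl22l1, Rpl39l, Rpl3l, Rps27l and Rps4l are paralogs of ribosomal proteins.

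The study measured RNA of mouse liver on 14 Affymetrix arrays in 4 groups. Wild-type (WT) livers were taken under control conditions (n = 3, 0.3% DMSO) or 6 h after 1 mg/kg tunicamycin (n = 4), a drug that blocks N-linked glycosylation and causes stress of the endoplasmic reticulum (ER). Livers of the genotype labelled lsPERK, which the series' design calls a knock-out, were taken under the same control (n = 3) and tunicamycin (n = 4) conditions. PERK, encoded by Eif2ak3, is the ER kinase that phosphorylates the translation factor eIF2. The labels give no time for the controls, no age, sex or strain, and not the construct that deletes the gene or the cells it acts in, and they do not say that arrays of a group came from separate animals, and the p-values below rest on the spread among arrays alone.

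A ribosome has a small subunit, which reads the messenger RNA, and a large subunit, which joins amino acids, and each holds 1 copy of most of its proteins. The genes of these proteins are among the most strongly transcribed in liver. Their messages share a run of pyrimidines at the very start, the 5′ terminal oligopyrimidine (TOP) tract, through which the growth-regulating kinase mTORC1 and the protein Larp1 control their translation, so that a cell can change how much ribosomal protein it makes without changing the amount of message. An array measures the message and not its translation. In bulk liver, fewer cells of a type and less RNA per cell cannot be told apart.

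The annotated start sites show which of these genes hold such a tract. RefSeq promoter sequences (GRCm38.p6) were matched by gene identifier for 44 of the 50 genes. Windows of 35 bases, 20 before and 15 from the start site on, are given on the strand of the gene for genes that the comparisons turn on, and for Rpl38 and Rps10 as examples with the tract at the annotated start; capitals mark a C followed by at least 4 further C or T that begins within 5 bases of the start.
Rpl12, chr2:32961692-32961726, plus strand: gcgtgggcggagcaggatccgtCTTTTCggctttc
Rps27, chr3:90213634-90213668, minus strand: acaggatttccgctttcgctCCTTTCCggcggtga
Rps25, chr9:44407694-44407728, plus strand: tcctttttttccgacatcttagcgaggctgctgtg
Rpl22l1, chr3:28805488-28805522, plus strand: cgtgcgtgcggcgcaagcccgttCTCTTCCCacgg
Rpl13a, chr7:45128731-45128765, minus strand: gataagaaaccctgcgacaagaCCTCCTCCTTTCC
Rps7, chr12:28635939-28635973, minus strand: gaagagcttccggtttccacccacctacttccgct
Rpl38, chr11:114668560-114668594, plus strand: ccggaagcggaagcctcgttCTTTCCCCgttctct
Rps10, chr17:27635230-27635264, minus strand: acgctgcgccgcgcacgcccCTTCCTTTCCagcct

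The tract began exactly at the annotated start in 8 of the 44 genes (18.2%), against 3.01% of 27025 genes in the same table, and within 5 bases of it in 20 (45.5%), against 21.2%. It was searched on the strand of the gene. In the 300 bases from 250 before to 50 after the start, searched on both strands, the binding motif of the ETS factor GABP, CCGGAAGT, was held by 22.7% of the ribosomal protein genes against 4.31% of all genes. A CCAAT box (CCAAT) was held by 27.3% against 41.1%, a TATA box (TATAAA) by 13.6% against 15.7%, a cyclic AMP response element (TGACGTCA) by 4.55% against 2.03% and an E box (CACGTG), the motif bound by Myc and Max, by 9.09% against 8.09%. The composite element TGATGNAA, bound by ATF4 with a C/EBP partner, was found in 0 of the 44 against 4.51% of all genes, and the ER stress element (ERSE), bound by ATF6 with NF-Y, in 0 against 0.137%. Of the 15 matched genes that rose under tunicamycin in WT liver, 5 held the pyrimidine tract within 5 bases of the start. A match of letters is not evidence of binding, and annotated starts can lie some bases from the used ones.

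Signals were read as log2 of the intensity after quantile normalization, which gives every array the same distribution of values. The deposited array medians ran from an intensity of 34.6 to 53.5, so that the choice of scaling matters here, and counts of calls and medians are also given under other scalings. Arrays of a group correlated at 0.942 to 0.980 and arrays of different groups at 0.877 to 0.973. The message of Eif2ak3 averaged 8.4 and 10.89 on the log2 scale in WT control and WT tunicamycin liver and 7.12 and 8.14 in lsPERK control and tunicamycin liver, and where its probes lie relative to the deletion is not known here. Xist, the transcript of the inactive X chromosome, was at 7878 to 9297 in 6 arrays (1 WT control, 1 WT tunicamycin, 2 lsPERK control, 2 lsPERK tunicamycin) and at 23.4 to 61.2 in the other 8. The log2 ratio of 3′ to 5′ signal of the β-actin control probes was 1.09 ± 0.15 (SD, n = 3) and 0.84 ± 0.25 (n = 4) in WT control and tunicamycin liver and 0.87 ± 0.25 (n = 3) and 0.68 ± 0.10 (n = 4) in lsPERK liver. Among 9 marker lists, hepatocyte markers had 1 gene higher and 1 lower in WT liver after tunicamycin, 1 of 5 macrophage markers, 2 of 5 sinusoidal endothelial and 2 of 5 kept stellate cell or fibroblast markers were lower, and 1 of 3 kept cholangiocyte markers was higher in lsPERK liver after tunicamycin. Log2 differences in WT liver ran from −1.10 to −0.66 for the 5 macrophage markers. For the 4 kept lymphocyte markers, of which 0 were called, they ran from −1.03 to −0.11. The log2 of the summed level overlapped between WT control and WT tunicamycin arrays for these lists: 12.80 to 14.20 and 12 to 13.56 for macrophages, 11.81 to 12.49 and 11.61 to 12.25 for endothelium, 13.28 to 13.75 and 12.97 to 13.45 for stellate cells. For the proliferation list it did not overlap, at 7.28 to 7.59 in WT control and 6.02 to 7.06 in WT tunicamycin arrays. The summed level of the cholangiocyte list was 6.91 to 7.21 in lsPERK control and 7.51 to 8.21 in lsPERK tunicamycin arrays. Its 4 genes averaged 4.16 to 5.83, also near that threshold. The part of RNA quality or cell mix in the differences below was not tested beyond the fits named in the closing section.

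Most of the ribosomal protein probe sets were bright. Of the 50 brightest probe sets, 1 per gene, 36 had a mean log2 level above 12. The median standard error of a difference was 0.06 for these 36 bright genes in the WT response. The brightest probe sets of the 50 genes together held 1.70% ± 0.07 (SD, n = 3) of the deposited signal in WT liver under control conditions and 1.65% ± 0.11 (n = 4) after tunicamycin. In lsPERK liver they held 1.67% ± 0.03 (n = 3) and 1.67% ± 0.05 (n = 4). These shares overlapped between all 4 groups. Rps16, a small-subunit protein, was represented only by a probe set between −1.16 and −0.04 on the log2 scale, and Rpl39l and Rpl3l, paralogs known from testis and muscle, by probe sets that averaged 2.22 to 4.43 in the 4 groups.

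**Figure D1:**
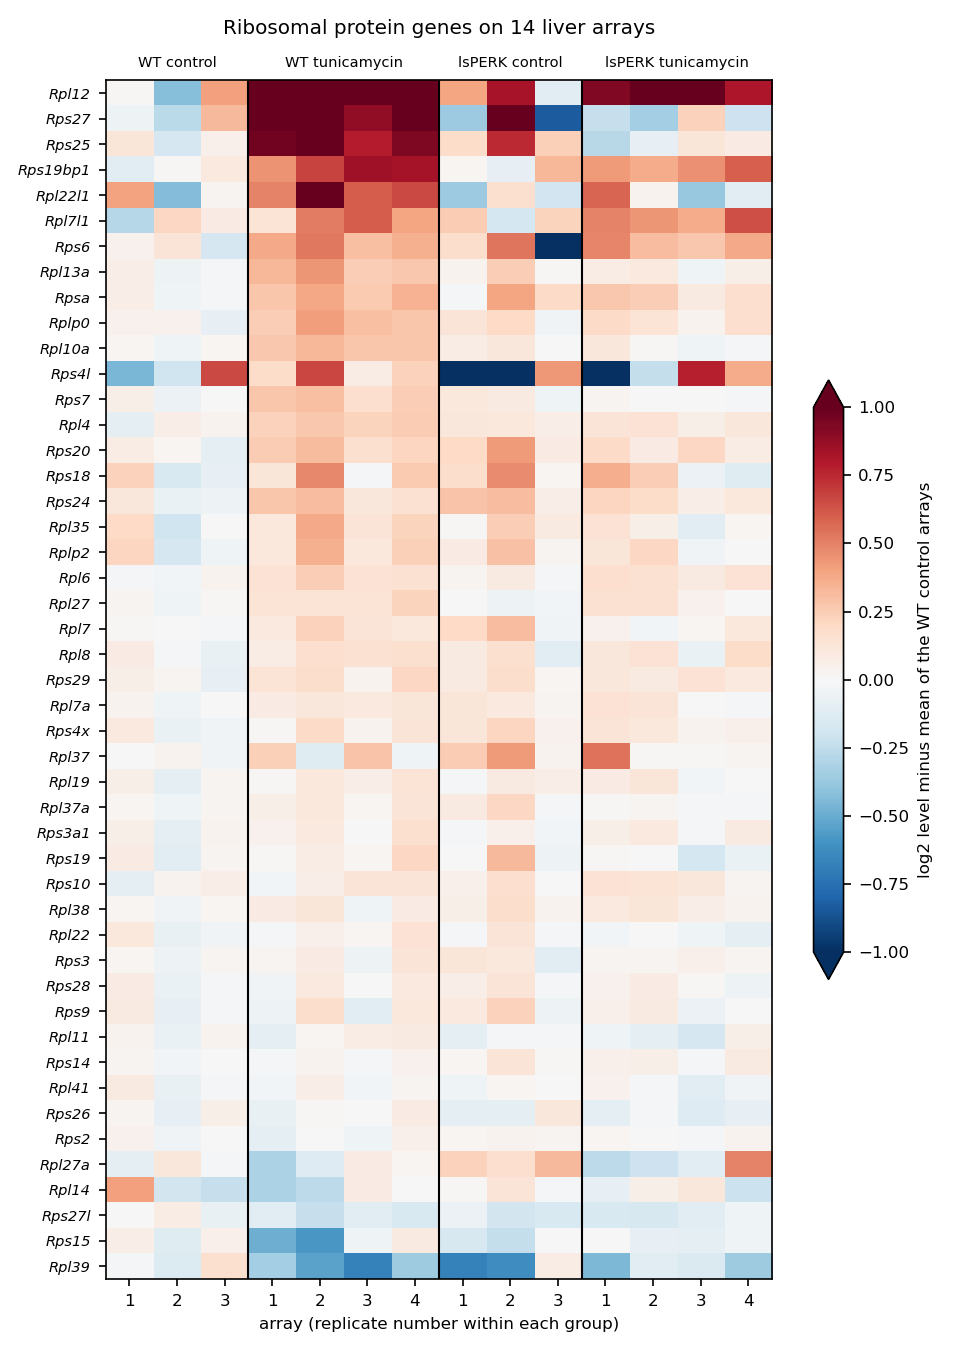
Each row is 1 of the 47 tested genes and each column 1 of the 14 arrays, coloured by the normalized log2 level minus the mean of the 3 WT control arrays (colour saturates at −1 and 1). The 4 WT tunicamycin columns are red over the upper rows, headed by Rpl12, Rps27 and Rps25, while most rows further down stay pale in all groups. Rps6 in lsPERK control replicate 3 and Rps4l in several arrays stand apart from the other arrays of their groups.

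In WT liver 16 of the 47 ribosomal protein messages rose after tunicamycin and 2 fell. Over all 12085 genes 46.7% were called in this comparison, 20.7% higher and 26% lower, so that the share of these genes called (18 of 47) was not above the background, and the balance was toward higher. The median difference over the 47 genes was 0.14 on the log2 scale, with 41 above 0, against −0.13 over all genes tested. Among the 36 bright genes 11 rose and 1 fell, the largest of these rises being 1.62-fold, for Rpl22l1. Only Rpl12 and Rps27 changed by 2-fold or more. The groups did not overlap for 19 of the 47 genes, against 48.2% of all genes.

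The stalk of the large subunit is where the GTPases of translation dock. Rpl12, a protein at the base of the stalk, read 6.72, 6.28 and 7.12 in WT control arrays and 8.98, 9.39, 8.71 and 8.90 after tunicamycin. Every treated array was above every control, by 2.29 on average (SE 0.24, 4.91-fold, adjusted p = 3.51e-06), the largest change of the 47 genes. Rpl12 was read by 1 probe set with a mean log2 level of 7.72, far dimmer than those of Rplp0 (13.61) and Rplp2 (13.35). Rplp0, the core protein of the stalk, read 13.50, 13.50 and 13.38 against 13.71, 13.88, 13.77 and 13.74. It rose by 0.31 (SE 0.07, 1.24-fold, adjusted p = 0.00185) with no overlap. Rplp2, its partner at the stalk's tip, was 0.20 higher and did not pass the test.

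Of 20 small-subunit proteins 6 rose and 0 fell, with a median of 0.08, against 20.7% higher and 26% lower over all genes. Rps25, which sits near the exit site and is needed for initiation on several viral internal ribosome entry sites, read 7.14, 6.85 and 7.07 in control and 7.98, 8.17, 7.80 and 7.95 in tunicamycin arrays. The groups lay well apart, with a difference of 0.96 (SE 0.17, adjusted p = 0.000307). Rps27, a zinc-finger protein of the small subunit, read 7.09, 6.87 and 7.47 against 8.70, 8.42, 8.03 and 8.25, a rise of 1.21 (SE 0.35, adjusted p = 0.0108). Both have a probe set far dimmer than those of most subunits. Rpsa, also known as the precursor of the laminin receptor, read 12.84, 12.73 and 12.75 against 13.05, 13.16, 13.04 and 13.12 and rose by 0.32 (SE 0.09, adjusted p = 0.00696). Rps7 read 13.46, 13.35 and 13.40 against 13.68, 13.70, 13.57 and 13.65 and rose by 0.25 (SE 0.06, adjusted p = 0.00207). Rps20 and Rps24 rose by 0.24 and 0.21 (adjusted p = 0.0243 and 0.0359).

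Other small-subunit proteins were not called. Rps2, at the entry of the messenger channel, read 13.85, 13.77 and 13.80 in control arrays and 13.71, 13.80, 13.76 and 13.86 in treated arrays. Rps14, of the platform, read 13.84, 13.79 and 13.81 against 13.80, 13.85, 13.80 and 13.86. For both the groups overlapped, with differences of −0.02 and 0.01 (SE 0.05 each). Rps3, Rps19 and Rps4x gave 0.05, 0.08 and 0.09 and were not called. Rps6, the substrate of the S6 kinases, read 9.32, 9.41 and 9.11 against 9.66, 9.80, 9.58 and 9.64. Its groups did not overlap, and 1 lsPERK control array, replicate 3, lay far below its group at 7.59. The difference of 0.39 had an adjusted p of 0.404 with that array in the fit and 0.0143 without it.

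Of 19 large-subunit proteins outside the stalk 5 rose and 1 fell, with a median of 0.09, against the same 20.7% and 26%. Rpl13a, which is released from the ribosome in interferon-treated macrophages and silences messages there, read 13.69, 13.58 and 13.61 in control and 13.96, 14.07, 13.88 and 13.90 in treated arrays, a rise of 0.32 (SE 0.07, adjusted p = 0.00147). Rpl10a, of the stalk on the exit side, read 13.11, 13.06 and 13.12 against 13.37, 13.43, 13.37 and 13.37 and rose by 0.29 (SE 0.05, adjusted p = 0.000597). Both pairs of groups were separate. Rpl4, which lines the exit tunnel, read 13.37, 13.53 and 13.50 against 13.70, 13.73, 13.69 and 13.72. It rose by 0.25 (SE 0.05, adjusted p = 0.00123). Rpl6 and Rpl27 rose by 0.17 and 0.16 (adjusted p = 0.0142 and 0.03).

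Rpl39, a short protein of the exit tunnel, went the other way. It read 8.43, 8.31 and 8.61 in control and 8.11, 7.91, 7.78 and 8.10 in treated arrays and fell by 0.48 (SE 0.18, adjusted p = 0.0401). The groups did not overlap. Rpl11, which binds Mdm2 together with Rpl5, gave 0.02, Rpl22 0.05, Rpl38, which is needed for translation of some Hox messages, 0.06, Rpl41 0.01 and Rpl7 0.14, and none was called.

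The paralogs parted. Rpl22l1, a paralog of Rpl22, read 12.57, 11.74 and 12.20 in control and 12.67, 13.18, 12.77 and 12.83 in treated arrays, a rise of 0.69 (SE 0.22, adjusted p = 0.0206). Rps27l, a p53-responsive paralog of Rps27, read 13.24, 13.31 and 13.17 against 13.12, 13.01, 13.12 and 13.09 and fell by 0.15 (SE 0.06, adjusted p = 0.0458). Rps4l varied between 9.89 and 11.02 in WT arrays and was not called. Both proteins that are not subunits rose. Rps19bp1, which binds Rps19 and is also known as a regulator of Sirt1, read 9.09, 9.21 and 9.30 against 9.65, 9.87, 10.04 and 10.03, a rise of 0.70 (SE 0.13, adjusted p = 0.000436). Rpl7l1 read 9.86, 10.34 and 10.22 against 10.27, 10.65, 10.74 and 10.53 and rose by 0.41 (SE 0.15, adjusted p = 0.0356), with overlap between its groups.

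**Figure D2:**
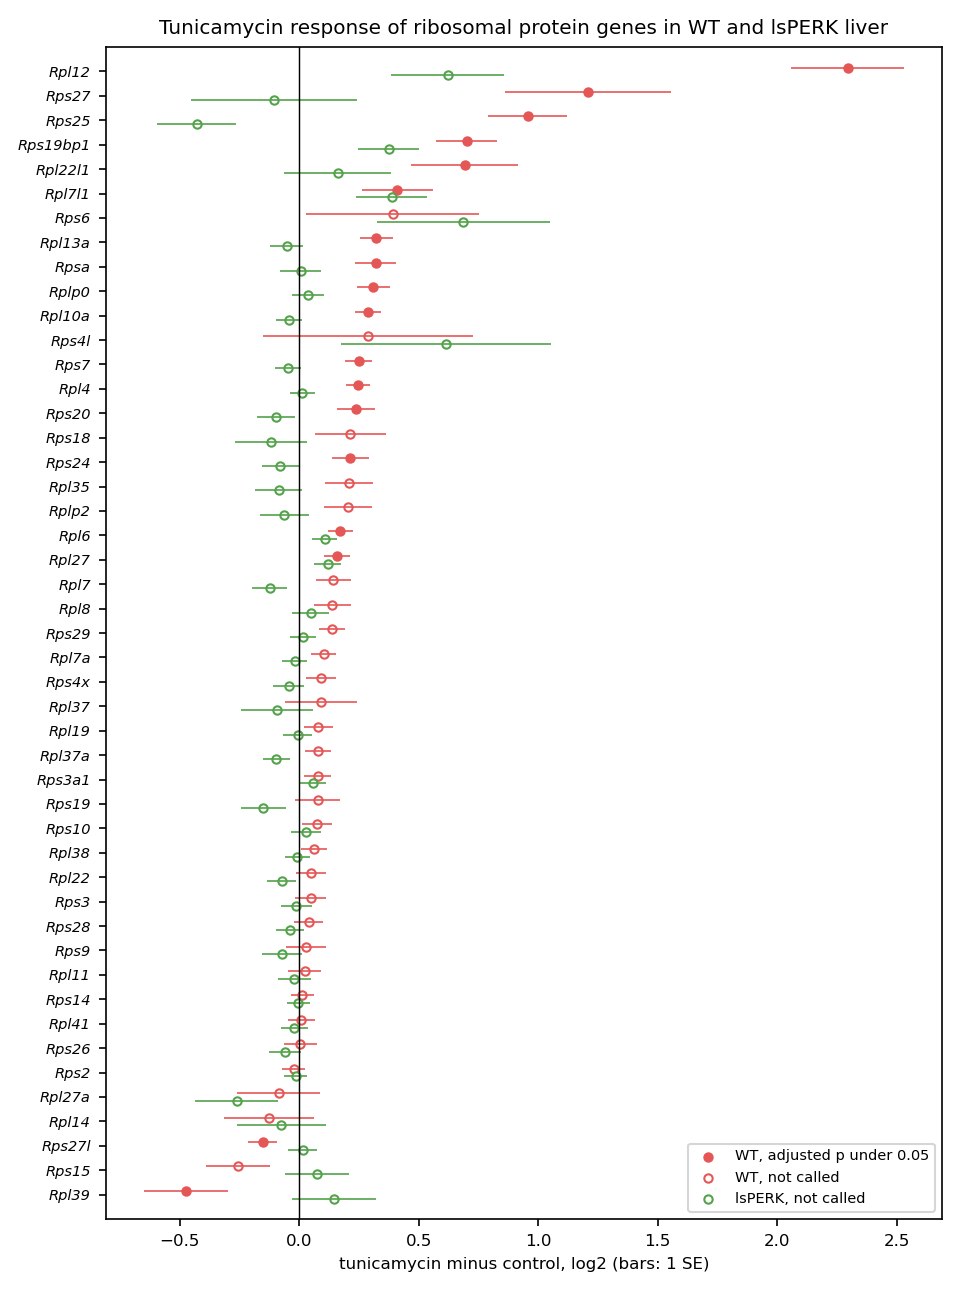
Points are the fitted log2 difference between tunicamycin and control for each of the 47 tested genes in WT (red) and lsPERK (green) liver, with bars of 1 SE; filled points passed an adjusted p under 0.05. In WT liver 18 points are filled, from Rpl12 at 2.29 to Rpl39 at −0.48, and in lsPERK liver none is filled.

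The scaling decided how many of the WT differences were called. As deposited, without normalization, the median of the 47 genes was 0.35 and that of all genes 0.30, with 17 genes called higher and 0 lower, against 30.1% and 5.84% of all genes. With arrays centred on their median it was 0.06 against 0.01, and 6 were higher and 0 lower, against 24.9% and 16.2%. With cyclic loess it was 0.09 against −0.12, with 12 higher and 2 lower, against 21.7% and 24.9% of all genes. With arrays centred on the brightest 5% of other probe sets it was 0.05 against 0.00, with 7 higher and 1 lower, against 25.7% and 18.3%. The excess of the ribosomal protein genes over all genes was therefore 0.27 after quantile normalization, 0.21 with cyclic loess and 0.05 in the deposited values and with both scalings that shift an array as a whole. A shift of whole arrays cannot change this excess, so the deposited values and both centrings give 1 result.

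Rpl12, Rps25, Rps27, Rpl22l1, Rps19bp1 and Rpl7l1 were called higher in WT liver under all 5 scalings. Rpl12 ranged from 2.29 to 2.82, Rps27 from 1.21 to 1.72, Rps25 from 0.96 to 1.45, Rps19bp1 from 0.70 to 1.26, Rpl22l1 from 0.66 to 0.96 and Rpl7l1 from 0.41 to 0.93. Rpsa was called under 4. Rpl13a, Rpl10a, Rplp0, Rpl4 and Rps7 were called under 3, and not with either median or bright-set centring, where their weakest adjusted p was 0.294, 0.282, 0.342, 0.608 and 0.548. No gene was called in opposite directions under different scalings. Rpl39 and Rps27l, lower after quantile normalization, gave 0.06 and 0.02 in the deposited values and were not called there.

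**Figure D3:**
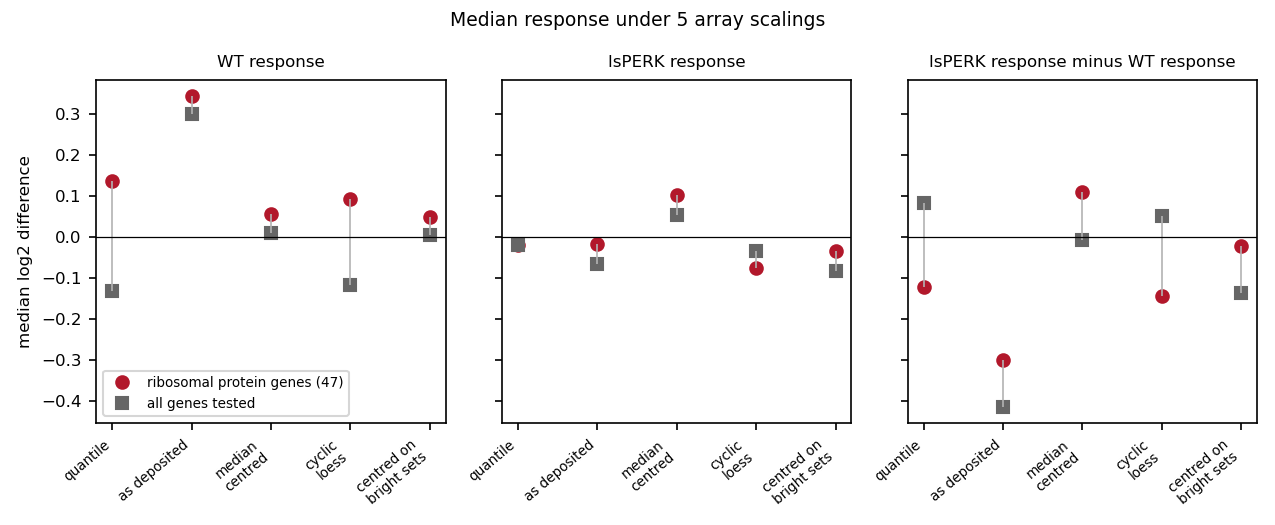
For each of 5 array scalings the plot gives the median log2 difference of the 47 ribosomal protein genes (circles) and of all 12085 genes tested (squares), in the WT response, the lsPERK response and the difference of both responses. In the WT panel the circle lies above the square under every scaling, by 0.27 with quantile normalization and by 0.05 as deposited. The deposited values and both centrings differ only by a shift of whole arrays, so their gaps are the same by construction.

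Single arrays decided 7 of the 18 WT calls, while the other 11 were kept whichever array was left out. Rpl22l1 was lost without WT control replicate 2 (0.48, adjusted p = 0.113) or WT tunicamycin replicate 2 (0.59, adjusted p = 0.0549). Rps20 was lost without WT control replicate 3 (0.19, adjusted p = 0.109) or WT tunicamycin replicate 2 (0.21, adjusted p = 0.0566). Rpl27 was lost without WT control replicate 2 or 3 or WT tunicamycin replicate 4 (at the weakest 0.14, adjusted p = 0.0967). These 3 genes kept their direction. Rps24 was lost without WT control replicate 2 or 3 or WT tunicamycin replicate 1 or 2 (at the weakest 0.18, adjusted p = 0.117). Rpl39 was lost without WT control replicate 1 or 3 or WT tunicamycin replicate 2 or 3 (at the weakest −0.40, adjusted p = 0.140). Rpl7l1 was lost without WT control replicate 1 or 3 or WT tunicamycin replicate 2, 3 or 4 (at the weakest 0.27, adjusted p = 0.181). Rps27l was lost in 11 of the 14 refits (at the weakest −0.12, adjusted p = 0.171, without WT control replicate 2). Besides Rps6, calls were gained by Rpl35 and Rplp2 without WT control replicate 1 (0.31 each, adjusted p = 0.0275 and 0.0251), Rps15 without WT tunicamycin replicate 4 (−0.37, adjusted p = 0.0223) and Rps29 without WT tunicamycin replicate 3 (0.17, adjusted p = 0.0228).

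In lsPERK liver no ribosomal protein message passed the test for a tunicamycin response. By limma 0 of 47 genes were called, while over all genes 15.7% were called, 8.42% higher and 7.27% lower. An unadjusted p under 0.05 was reached by 4 of the 47 (Rps19bp1, Rpl12, Rps25 and Rpl7l1), against 3422 of all 12085 genes. The median difference was −0.02, equal to the −0.02 of all genes, and 18 of the 47 were above 0. The 36 bright genes lay between −0.15 and 0.16, with a median SE of 0.06. The groups did not overlap for 5 genes, against 27.2% of all genes.

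Rpl12 read 7.10, 7.53 and 6.60 in lsPERK control and 7.63, 7.79, 7.86 and 7.51 in lsPERK tunicamycin arrays. Its groups overlapped slightly, with a difference of 0.62 (SE 0.24, adjusted p = 0.0960). Rps25 read 7.20, 7.77 and 7.26 against 6.74, 6.93, 7.14 and 7.10. All its treated arrays were below the controls, by 0.43 (SE 0.17, adjusted p = 0.0998). Rps27 read 6.78, 8.23 and 6.31 against 6.91, 6.80, 7.37 and 6.93, and 1 control array, replicate 2, stood far above the rest. Rpl22l1 read 11.81, 12.33 and 11.98 against 12.75, 12.20, 11.79 and 12.06, a difference of 0.16 with wide overlap.

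The smallest p in lsPERK liver was that of Rps19bp1. It read 9.22, 9.12 and 9.53 in control and 9.63, 9.57, 9.66 and 9.80 in treated arrays, a difference of 0.37 (SE 0.13, adjusted p = 0.0615) without overlap. It was called under 3 of the 5 scalings, from 0.35 to 0.49, and without lsPERK control replicate 3 (0.49, adjusted p = 0.0235) or WT tunicamycin replicate 1 (0.37, adjusted p = 0.0476). Rpl7l1 read 10.40, 9.96 and 10.36 against 10.63, 10.58, 10.51 and 10.79 and gave 0.39 (SE 0.15, adjusted p = 0.10). Rpl12 was called without lsPERK control replicate 2 (0.85, adjusted p = 0.0466) and Rpl7 without lsPERK control replicate 3 (−0.22, adjusted p = 0.0364).

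Core subunit proteins that rose in WT liver were not called in lsPERK liver. Rplp0 read 13.59, 13.66 and 13.43 in control and 13.65, 13.60, 13.50 and 13.63 in treated arrays. Rpl13a read 13.66, 13.87 and 13.64 against 13.70, 13.72, 13.59 and 13.68. Rpl10a read 13.17, 13.21 and 13.09 against 13.21, 13.11, 13.05 and 13.09. In all 3 the groups overlapped. Rps7 read 13.50, 13.49 and 13.36 against 13.43, 13.40, 13.40 and 13.38, and Rpl4 read 13.58, 13.57 and 13.53 against 13.59, 13.61, 13.52 and 13.58. Rps6 read 9.45, 9.81 and 7.59 against 9.76, 9.58, 9.54 and 9.65, so that 1 control array lay far below the other 2.

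Between the genotypes under control conditions no ribosomal protein message passed the test. Eif2ak3 itself, at −1.27 (lsPERK minus WT, SE 0.21), was not called either (limma, adjusted p = 0.309). By limma 0 of 47 were called and 0% of all genes (512 genes had an unadjusted p under 0.05), and 4 of the 47 had an unadjusted p under 0.05 (Rps20, Rps24, Rps25 and Rpl39). The groups did not overlap for 5 genes, against 7.39% of all genes. The median was 0.08 (lsPERK minus WT), against −0.02 over all genes, and it ran from −0.12 with median centring to 0.20 in the deposited values. The smallest p was that of Rps20, at 13.23, 13.17 and 13.06 in WT and 13.35, 13.58 and 13.23 in lsPERK control arrays (0.24, SE 0.09, adjusted p = 0.992). Rps4l had the widest gap, −0.64 (SE 0.47). It read 9.89, 10.15 and 11.00 in WT control, 9.08, 9.28 and 10.78 in lsPERK control and 9.35, 10.11, 11.13 and 10.72 in lsPERK tunicamycin arrays. In both lsPERK groups replicates 1 and 2, the arrays with high Xist, were the low ones, and in WT the arrays with high Xist read 9.89 and 11.02.

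Under tunicamycin 9 of the 47 ribosomal protein messages were lower in lsPERK than in WT liver and 0 were higher. Over all genes 35.3% were called, 18.5% higher and 16.8% lower. The median of the 47 genes was −0.07, with 11 above 0, against 0.05 over all genes. Rps27 was lower by 1.35 on the log2 scale (SE 0.32, 2.54-fold, adjusted p = 0.00481), Rpl12 by 1.30 (SE 0.22, 2.46-fold, adjusted p = 0.000391), Rps25 by 1.00 (SE 0.15, adjusted p = 0.000186) and Rpl22l1 by 0.66 (SE 0.21, 1.58-fold, adjusted p = 0.0232). These 4 were called under all 5 scalings. For the first 3 every lsPERK array was below every WT array, and for Rpl22l1 lsPERK replicate 1 at 12.75 reached the WT range. The groups did not overlap for 8 of the 47 genes, against 36.3% of all genes.

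The other 5 were bright core proteins with small differences. Rpl13a was lower by 0.28, Rpl10a by 0.27, Rps7 by 0.25, Rplp0 by 0.18 and Rpl4 by 0.13, with adjusted p from 0.000818 for Rpl10a to 0.0403 for Rplp0, and no overlap in any of them. Rpl13a, Rpl10a and Rps7 kept their call under 3 scalings and Rplp0 and Rpl4 under 2. With the values as deposited 5 were called lower, against 16.2% of all genes, and with median centring 5, against 19%. Rps19bp1 was not called after quantile normalization and was called lower as deposited and with both centrings. Single arrays mattered for 3 genes. Rpl4 lost its call without any 1 of the 8 tunicamycin arrays (adjusted p up to 0.104). Rplp0 lost it without lsPERK tunicamycin replicate 2, 3 or 4 or WT tunicamycin replicate 2, 3 or 4 (up to 0.118). Rpl22l1 lost it without lsPERK tunicamycin replicate 3 or 4 or WT tunicamycin replicate 2 (up to 0.0744). Rps15 gained one without WT tunicamycin replicate 4 (0.31, adjusted p = 0.0463).

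The difference of the 2 responses asks directly whether tunicamycin was followed by a different change in lsPERK liver. It uses the same arrays as the comparisons above and is not separate evidence. Tested as an interaction, 6 of the 47 genes had a lower response in lsPERK than in WT liver and 0 a higher one, while 19.9% of all genes were called, 10.2% higher and 9.67% lower. The median was −0.12, against 0.08 over all genes. Rpl12 gave −1.67 (SE 0.33, adjusted p = 0.00360) and Rps25 −1.39 (SE 0.23, adjusted p = 0.00129), and these 2 were called under all 5 scalings. Rps27 gave −1.31 (SE 0.49, adjusted p = 0.0775) and passed under 3 scalings. Rps19bp1 passed under 2, as deposited and with bright-set centring, and not after quantile normalization.

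Rpl13a gave −0.38 (SE 0.10, adjusted p = 0.0149), Rpl10a −0.33 (SE 0.08, adjusted p = 0.00856), Rps7 −0.30 (SE 0.08, adjusted p = 0.0165) and Rpl4 −0.23 (SE 0.07, adjusted p = 0.0359). Rpl13a was called under 3 scalings and the other 3 under 2. The median of the 47 genes changed its sign with the scaling, from −0.30 as deposited to 0.11 with median centring. Leaving out lsPERK control replicate 3 raised the count of calls from 6 to 12, while that over all 12085 genes went from 2401 to 2190. Calls were gained by Rpl39 (0.86, adjusted p = 0.0110), Rpl7 (−0.36, adjusted p = 0.0116), Rplp0 (−0.34, adjusted p = 0.0220), Rps20 (−0.41, adjusted p = 0.0194), Rps24 (−0.37, adjusted p = 0.0276) and Rps27 (−1.71, adjusted p = 0.0188). Rpsa gained a call without lsPERK control replicate 1 (−0.42, adjusted p = 0.0146), and Rpl4 lost its own in 9 of 14 refits (adjusted p up to 0.0940, without WT control replicate 1).

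The size of the WT response differed between probe sets of the same gene. On the array 24 of the 50 genes had several probe sets, and 96 of the 106 probe sets of the 50 genes passed the filter. Of these, 32 were called higher and 3 lower in WT liver, against 21.4% and 21.6% of all 21808 kept probe sets, and 1 higher and 1 lower in lsPERK liver, against 8.18% and 5.76%. Without the WT tunicamycin arrays 94 of the 96 passed the filter, so that a WT rise of the others is in part built in. Rpl13a had 4 probe sets. The 2 brightest rose by 0.32 and 0.33 in WT liver, and the 2 dimmer ones, at 11.09 and 10.31 in WT control, by 1.30 (adjusted p = 3.4e-06) and 1.41 (adjusted p = 1.9e-05). In lsPERK liver all 4 lay between −0.05 and 0.20. Rpl41 gave 0.01 by its brightest probe set, −0.34 (adjusted p = 0.0172) by the second, and rises of 1.27 (adjusted p = 0.000225) and 1.65 (adjusted p = 0.00014) by its 2 dim ones. The dimmest was on average below the filter threshold in WT control, so that its rise is given as at least 2.77-fold.

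Rps3 gave 0.05 by its brightest probe set and 1.02 (adjusted p = 5.85e-05) by one at 7.47, while another at 5.30 gave 0.03. Rps9, a small-subunit protein, gave 0.03 and −0.28 by bright probe sets and 1.26 (adjusted p = 0.000728) by one at 6.36. In all, 8 genes had a brightest probe set above 12 and at least 1 other kept one below 9, with 11 such dim probe sets. Of these 11, 8 gave a larger WT difference than the brightest one. Called higher were 6 of the 11, against 16.6% of all kept probe sets under a level of 8. The limit from the filter given above applies to these counts. Rps20 had a pair of dim ones, at 5.61 and 5.53, that gave 0.13 and 0.16 and were not called. Where in the message each probe set lies was not used here.

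**Figure D4:**
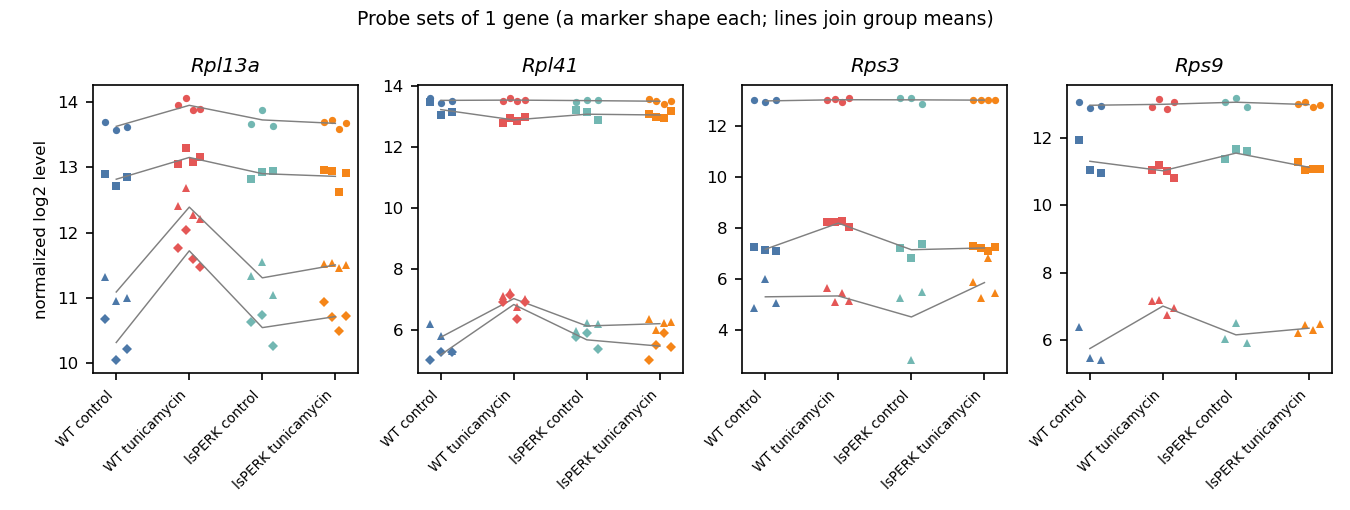
For 4 genes every kept probe set is drawn as 1 marker shape, with the normalized log2 level of each array as a point and lines joining the group means. The brightest probe sets of Rpl41, Rps3 and Rps9 run level between WT control and WT tunicamycin, while some lower ones rise; all 4 probe sets of Rpl13a rise, the lower 2 by 1.30 and 1.41.

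Sorted by mean signal, the 64 ribosomal protein probe sets above a log2 level of 12 had a median WT difference of 0.12, with 17 higher and 2 lower, and all 1068 probe sets in that range had −0.13, with 20.7% higher. In the deposited values the medians were 0.27 and 0.05. The 17 kept ribosomal protein probe sets under a level of 8 ran from −0.13 to 2.29 in WT liver and from −0.94 to 1.35 in lsPERK liver, where 0 were called. Of these 17, 9 were above the filter threshold in all 14 arrays and 2 passed it only through WT tunicamycin arrays, so that a WT rise is in part built into the set and no median is read from it. All 47 brightest probe sets were above the threshold in all 14 arrays. The dimmest probe set of Rpl22, at 10.25, fell in lsPERK liver by 0.82 (adjusted p = 0.00478 over all probe sets), while its 2 brighter ones gave −0.07 and −0.05.

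**Figure D5:**
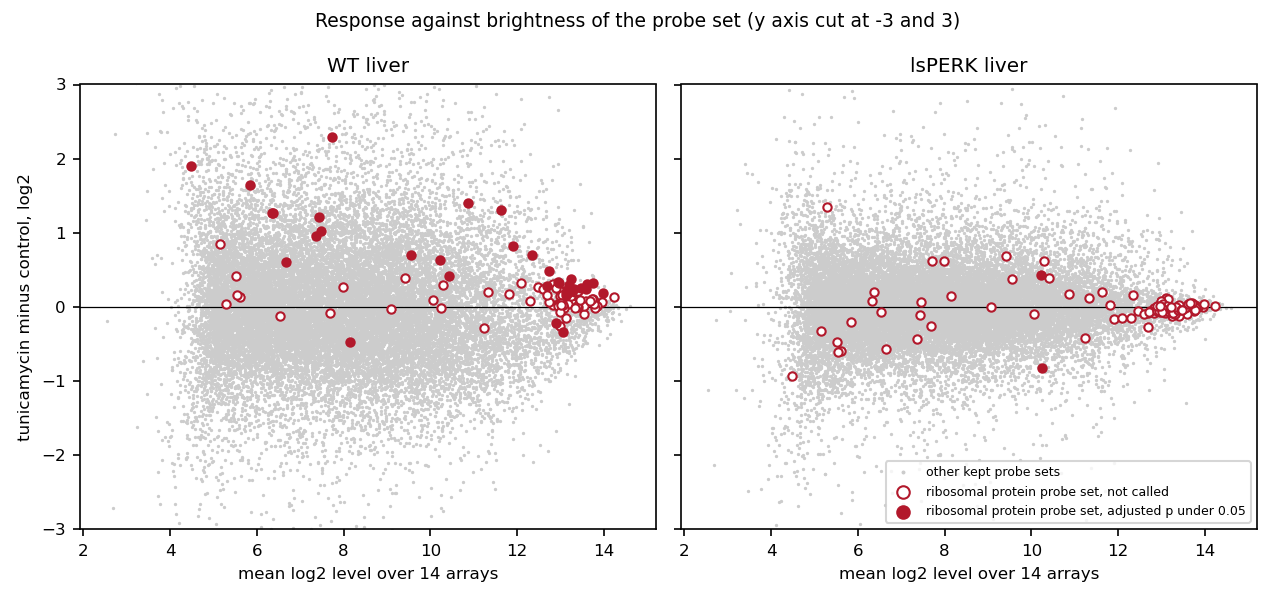
The difference between tunicamycin and control is drawn against the mean log2 level for every kept probe set naming 1 gene (grey) and for the 96 ribosomal protein probe sets (red; filled where the adjusted p was under 0.05). In WT liver most red points crowd near 0 at the bright end, and those under a level of 8 spread from −0.13 to 2.29, 2 of them kept only through WT tunicamycin arrays; in lsPERK liver those dim points spread from −0.94 to 1.35.

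A further 110 probe sets named a ribosomal protein gene together with other genes, mostly copies and pseudogenes, and cannot be given to 1 gene. They are the only probe sets of 31 ribosomal protein symbols, among them Rpl3, Rpl5, Rpl10, Rpl26 and Rplp1, for which no value is given. As a group, 28 of the 102 that passed the filter rose in WT liver and 3 fell, with a median of 0.12 against −0.05 over all 22410 probe sets in that fit, of which 21.4% rose and 21.5% fell. In lsPERK liver 1 rose and 0 fell, with a median of −0.04, against 8.12% and 5.63% of all. Under tunicamycin 14 were lower in lsPERK liver and 1 higher, against 15.5% and 15.8%, and the difference of responses was lower in 10 and higher in 0, against 8.52% and 7.77%.

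Ribosome biogenesis factors process ribosomal RNA and assemble the subunits. Of 39 measured ribosome biogenesis factors, 35 rose in WT liver after tunicamycin and 0 fell, with a median of 0.92, against 20.7% higher and 26% lower over all genes. Tsr1, which matures the small subunit, rose by 2.44 (SE 0.14, adjusted p = 1.95e-08), Nip7, which acts on the large subunit, by 2.35, Gar1, of the pseudouridylation complex, by 2.20, and Gnl3, a nucleolar GTPase, by 1.90. In lsPERK liver 13 rose and 0 fell, with a median of 0.30, against 8.42% and 7.27%. As deposited 4 rose there, against 3.37% of all genes. The difference of responses was lower in 23 of the 39 (median −0.72) against 9.67% of all genes, and in 32 as deposited against 14.7%; Tsr1 gave −1.74 (SE 0.20). Under tunicamycin 34 of the 39 were lower in lsPERK liver, against 16.8% of all genes. Over the 5 scalings the WT rises numbered 35 to 38, the lsPERK rises 4 to 14, the lower differences 23 to 33 and the lower levels under tunicamycin 34 to 37.

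Of 13 genes of RNA polymerase I and its factors, which transcribe ribosomal RNA, 11 rose in WT liver (median 0.76) and 2 in lsPERK liver (median 0.11), and 5 had a lower response in lsPERK liver, against 20.7%, 8.42% and 9.67% of all genes. The counts of rises were 11 and 2 under all 5 scalings, and that of lower responses ran up to 9, reached as deposited and with bright-set centring. Twistnb, a polymerase I subunit, rose by 2.29 in WT (SE 0.11) and gave a difference of −2.24 (SE 0.16) between the genotypes' responses. Polr1b, its second largest subunit, rose by 1.54. Of 17 regulators of ribosome synthesis 10 rose and 3 fell in WT liver, against 20.7% and 26% of all genes, and over the scalings 10 to 11 rose and 1 to 3 fell. Max, the partner of Myc, rose by 1.43 and Mxd1, its antagonist, by 1.80, while Eif4ebp2, an inhibitor of cap-dependent translation, fell by 1.11 and its relative Eif4ebp1 rose by 0.73. Myc itself averaged 7.51 and 10.76 in WT liver before and after tunicamycin and 8.20 and 6.92 in lsPERK liver, with a difference of responses of −4.53 (SE 0.95, adjusted p = 0.00474).

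Other messages known to carry a TOP tract encode factors outside the ribosome. Of 15 measured, 5 rose and 0 fell in WT liver, with a median of 0.12, against 20.7% and 26% of all genes. As deposited 8 rose, against 30.1%. With cyclic loess, median centring and bright-set centring 3 rose each time, against 21.7%, 24.9% and 25.7%. Hnrnpa1, a splicing regulator, rose by 1.55 (SE 0.21), Gas5, a noncoding host of small nucleolar RNAs, by 0.91, Eif3e, an initiation factor subunit, by 0.33 and Eef1b2, an elongation factor subunit, by 0.22. In lsPERK liver 0 rose and 1 fell, against 8.42% and 7.27% of all genes. The 1 that fell was Eif4b, by 0.73 (SE 0.14, adjusted p = 0.00337).

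Proteins of the mitochondrial ribosome, a separate set encoded by nuclear genes, went mostly down on the normalized scale. Of 76 measured, 12 rose and 38 fell in WT liver, with a median of −0.28, against 20.7% and 26% of all genes and a median of −0.13. In lsPERK liver 8 rose and 3 fell (median 0.03), against 8.42% and 7.27%. Mrpl14 fell by 1.07 (SE 0.12) and Mrps18b rose by 1.28 (SE 0.13). The counts moved with the scaling as those of all genes did: in the deposited values 23 rose and 2 fell, with a median of 0.22, against 30.1% and 5.84% of all genes and a median of 0.30. There Mrpl14 (−0.57, adjusted p = 0.0225) and Mrps18b (1.68) kept their direction. The difference of responses was higher in 25 and lower in 2 on the normalized scale, against 10.2% and 9.67% of all genes. In the deposited values it was lower in 7 and higher in 0, against 14.7% and 1.08%.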

How the data were processed

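Biotin-labelled cRNA was made from 100 ng of liver RNA with the 3′IVT kit protocol of Affymetrix, per the labels. The authors deposited 1 linear intensity per probe set and array; MAS5 and GCOS were used per the submitters' processing notes, with versions and scaling target not given in the sources used here. Controls (64 of 45101 probe sets) were removed, the log2 of the deposited intensities was quantile normalized, and probe sets above the pooled median (log2 5.37) in at least 3 arrays were kept. Each gene was represented by its brightest kept probe set. The 4 group means entered 1 limma fit (version 3.58.1, R 4.3.3; eBayes with trend, 10 residual degrees of freedom) with 5 two-sided contrasts, and p-values were adjusted over 12085 genes by the Benjamini-Hochberg method. Called means an adjusted p under 0.05. Where probe sets of 1 gene or shared probe sets are compared, the adjustment runs over all probe sets of that fit. The code was tested on simulated data. Figures were drawn with matplotlib from these results.

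The genes and lists were chosen with earlier results of these data known. Named genes follow a rule: the 5 largest called rises and falls per contrast, a set of 33 fixed names, genes the filter left out, genes with an array apart, and up to 4 per related list. Rps20, Rps24, Rps15, Rps29, Rps9, Rps4l, Rpl35 and Rps10 were named after their values were seen where they fall outside it. Alternatives covered scaling, filter, probe set choice, covariates, variance model and leaving out arrays.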

Additional observations from a re-analysis of the deposited data

Results flagged for a closer look

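In 5 of the 94 groups of 4 arrays tested, 1 array lay far from the other 3 by Dixon's criterion, where chance alone flags about 4.7 of 94. Rpl10a in WT tunicamycin read 13.43 in replicate 2, with the others at 13.37. Rpl27 in WT tunicamycin read 13.27 in replicate 4, with the others at 13.19. Rpl6 in WT tunicamycin read 13.29 in replicate 2, with the others at 13.19 to 13.20. Rpl37, a large-subunit protein, read 10.49 in lsPERK tunicamycin replicate 1, with the others at 9.96 to 9.97. Rps3 in lsPERK tunicamycin read 13.04 in replicate 3, with the others at 13.01 to 13.02.

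The tunicamycin response differed between the genotypes, tested as an interaction in limma, for Rpl12 (−1.67, adjusted p = 0.00360), Rps25 (−1.39, adjusted p = 0.00129), Rpl13a (−0.38, adjusted p = 0.0149), Rpl10a (−0.33, adjusted p = 0.00856), Rps7 (−0.30, adjusted p = 0.0165) and Rpl4 (−0.23, adjusted p = 0.0359), each with the lower response in lsPERK liver. Rps25 averaged 7.41 in lsPERK control and 6.98 in lsPERK tunicamycin liver, a change below 0 that was not called.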

How the results depend on the processing

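Of 33 calls over the 5 comparisons, 29 kept direction and call with cyclic loess, 22 with deposited values, 17 with bright-set centring and 12 with median centring; none was called the opposite way, while Rpl39 (0.062) and Rps27l (0.022) in WT liver with deposited values and Rpl4 (0.027) in the difference of responses with median centring changed sign without a call. The WT response had 6 calls and a median of 0.056 with median centring, 8 and 0.050 with bright-set centring and a median of 0.35 as deposited. Over all 12085 genes 4966 were called with median centring and 5313 with bright-set centring. When every probe set was tested, 35 of 96 were called, against 9379 of all 21808. The WT median was 0.11 in Xist-high arrays alone. The lsPERK response had 1 call with median centring (median 0.10), cyclic loess (−0.076) and bright-set centring, against 1510, 1978 and 1770 of 12085 genes. It had 2 with the mean of probe sets and with an Xist covariate, against 1800 and 2382. With every probe set it had 2 of 96, against 3040 of 21808. In Xist-low arrays alone its median was 0.00095. The control comparison had medians of 0.20 as deposited, −0.12 with median centring and −0.033 with bright-set centring, and Rps6 gave −1.67 in Xist-low arrays alone. Under tunicamycin the genotypes differed in 5 genes as deposited, 5 with median centring, 4 in Xist-high arrays alone and 23 of 96 probe sets, with a median of −0.13 for the mean of probe sets. The difference of responses had a median of −0.30 as deposited, 0.11 with median centring, −0.021 with bright-set centring and −0.18 with the mean of probe sets. Its calls numbered 3 with median centring, 12 with the mean of probe sets and 3 without the variance trend. Over all 12085 genes these numbers were 1849, 2183 and 2191. Of 96 probe sets 16 were called (median −0.18), against 3558 of 21808. The median was −0.12 in Xist-low and −0.15 in Xist-high arrays alone. The causes were not tested. The Xist splits and the test of every probe set were chosen after seeing the data. Each WT group with Xist-high arrays and the lsPERK control group with Xist-low arrays then has 1 array. The count of genes given above for Xist-high arrays under tunicamycin rests on such a group, and no conclusion is drawn from it. Apart from that count, only effect sizes are therefore given for these splits. The lsPERK control array with low Xist is replicate 3, in which Rps6 lay far below its group.

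Leaving out each array in turn gave 12 to 18 WT calls (median 0.11 to 0.14), 0 to 2 in lsPERK (−0.04 to 0.01), 0 to 0 in the control comparison (0.03 to 0.11), 6 to 9 under tunicamycin (−0.07 to −0.04) and 5 to 12 in the difference (−0.17 to −0.09). Over all 12085 genes these refits called 4897 to 5707, 1119 to 2057, 0 to 1, 3685 to 4362 and 1928 to 2291. A replicate block gave 15, 0, 0, 8 and 7 calls in these comparisons, against 5472, 1666, 0, 4256 and 2243 of 12085 genes. Deviations of same-numbered arrays of different groups had a median r of 0.24 over 19 pairs (−0.37 to 0.42), and those of differently numbered arrays −0.17 over 54 pairs; the labels name no shared animal or batch and not every same-number r was over 0.1, so the numbers were not used as pairs. The 3′ to 5′ covariate and the other filters moved no count by over 1.5 times. Array number and the dim signal of 11 genes limit precision.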
